A study of Mus musculus with 4 samples.

Results

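The genes described here encode the T cell receptor complex of mouse CD8+ T cells and the proteins that carry, tune and end its signal. They were given as a list of 37 gene symbols, and each was found once in the deposited count table, among 55401 genes in all. All 37 passed the filter on low counts, Trat1 only through the Hic1 vector libraries, and 11676 genes were left for testing. The cells were P14 CD8+ T cells, whose receptor is a transgene specific for lymphocytic choriomeningitis virus (LCMV), sorted from the spleen of mice infected with the Armstrong strain. One group carried an empty control vector and the other with one for overexpression of Hic1, which encodes a repressor of transcription with zinc fingers, so both groups carried the transgenic receptor, a vector and the infection. Each group had 2 libraries (n = 2 per group), numbered replicates 1 and 2 in the labels. The sample labels gave day 32 after infection and the series text day 7, so the time point is given both ways. The age, sex and strain of the mice, and whether a replicate was 1 mouse or a pool, were not stated in the sources used here.

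The T cell receptor binds peptide on MHC through its alpha and beta chains, which have almost no cytoplasmic part of their own. Signals pass through the attached CD3 chains and the zeta chain, whose tyrosines are phosphorylated by the kinase Lck, brought in by the CD8 coreceptor. The kinase ZAP-70 docks there and phosphorylates the adaptors LAT and SLP-76, which assemble the enzymes that open the calcium, Ras and NF-kB branches. Phosphatases, ubiquitin ligases and inhibitory adaptors set the threshold of this cascade and end it.

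The sequence before the start site is printed for the called members with an entry in the RefSeq table (Trat1 and Zap70) and for the CD3 and zeta chains, so that called members can be set beside the core of the complex. Trbc2, also called, has no entry there. Each run is the 250 bases before the farthest upstream RefSeq start site (GRCm38.p6), 5′ to 3′ on the strand of the gene. Zap70 had 3 entries there and the other printed genes 1 each, and the shares of genes below rest on the same choice. Capitals mark GGGCA on either strand (TGCCC on the printed one), an extended form of the GGCA core known to be bound by HIC1. The shorter GGCA is not marked, and it also stands in the runs of Trat1, Cd3d and Cd247.
Trat1: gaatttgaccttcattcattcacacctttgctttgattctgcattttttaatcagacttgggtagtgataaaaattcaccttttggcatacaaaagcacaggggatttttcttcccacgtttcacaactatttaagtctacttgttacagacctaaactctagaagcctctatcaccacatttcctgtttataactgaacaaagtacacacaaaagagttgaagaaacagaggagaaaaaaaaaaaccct
Zap70: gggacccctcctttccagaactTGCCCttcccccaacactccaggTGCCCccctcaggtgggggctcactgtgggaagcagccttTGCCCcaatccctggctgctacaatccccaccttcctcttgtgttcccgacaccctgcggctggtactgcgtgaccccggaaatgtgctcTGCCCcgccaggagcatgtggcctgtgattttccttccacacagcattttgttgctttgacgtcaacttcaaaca
Cd3d: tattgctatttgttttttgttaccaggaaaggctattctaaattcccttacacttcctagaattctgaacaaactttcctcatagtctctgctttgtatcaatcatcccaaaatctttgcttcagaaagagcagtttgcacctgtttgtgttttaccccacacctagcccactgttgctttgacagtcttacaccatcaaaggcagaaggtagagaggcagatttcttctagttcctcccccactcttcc
Cd3g: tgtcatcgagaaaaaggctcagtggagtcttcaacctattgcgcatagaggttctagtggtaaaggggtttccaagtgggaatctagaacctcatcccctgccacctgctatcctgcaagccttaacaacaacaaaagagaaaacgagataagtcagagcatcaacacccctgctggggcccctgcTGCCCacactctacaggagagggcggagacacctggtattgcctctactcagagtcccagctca
Cd3e: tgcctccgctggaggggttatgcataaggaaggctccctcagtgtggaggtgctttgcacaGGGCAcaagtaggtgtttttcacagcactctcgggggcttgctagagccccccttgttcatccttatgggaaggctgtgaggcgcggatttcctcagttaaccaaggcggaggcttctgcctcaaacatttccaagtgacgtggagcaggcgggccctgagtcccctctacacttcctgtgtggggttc
Cd247: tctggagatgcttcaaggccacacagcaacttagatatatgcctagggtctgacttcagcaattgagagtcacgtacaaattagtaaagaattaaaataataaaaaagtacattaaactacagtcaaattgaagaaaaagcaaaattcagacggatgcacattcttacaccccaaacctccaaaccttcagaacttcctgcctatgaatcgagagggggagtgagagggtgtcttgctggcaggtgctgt
The Trat1 run lay at chr16:48772063-48772312 on the minus strand and held no GGGCA or TGCCC, and its GC content was 35.2%. The Zap70 run lay at chr1:36761548-36761797 on the plus strand, held 4 matches that began 228, 205, 165 and 75 bases before the start, and had a GC content of 58.8%. Cd3d (chr9:44981536-44981785, plus strand) had no match, while Cd3g (chr9:44980432-44980681, minus strand) and Cd3e (chr9:45009612-45009861, minus strand) had 1 each. The Cd247 run (chr1:165788431-165788680, plus strand) had none. Of 29 members with an entry, 12 (41.4%) held GGGCA or TGCCC in this window, against 47.2% of all 27025 genes in the table. GGAAGT or ACTTCC, letters of the ETS family motif, stood in 12 of the 29 (41.4%) against 19.9% of all genes. CTTTGA or TCAAAG, letters of the TCF and LEF motif, stood in 7 (24.1%) against 14.1%, Trat1, Zap70 and Cd3d among them. TGTGGT or ACCACA, letters of the RUNX motif, stood in 3 (10.3%) against 14.2%, among them Trat1 and Lck. These are matches of letters, and no binding was measured.

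Depth differed with the group, at 4017346 and 3941364 counts with the empty vector and 7501285 and 8839317 counts with Hic1. Levels are given as CPM, the share of a library's reads taken by a gene with libraries scaled by TMM for composition. Hic1 itself was at 0.728 and 1.25 CPM with the empty vector and at 44.2 and 18.3 CPM with the Hic1 vector, as the labels have it. The transcript Xist of the inactive X chromosome had 1885 and 3590 counts in the libraries numbered 1 and 0 and 3 in those numbered 2. Eif2s3y, a gene of the Y chromosome, had 0 and 0 counts in the libraries numbered 1 and 396 and 951 in those numbered 2. By these transcripts, the cells of numbers 1 and 2 differed in sex within each group. Differences taken within each number are therefore given beside the main members. The labels do not say whether a replicate was 1 animal or a pool, and p-values measure the spread between these samples. The main analysis has no term for the replicate number, so the difference in sex is part of that spread. Markers of the labelled cell type were abundant, since CD3, CD8 and Trac, which are members themselves, together summed to 4937 to 6110 CPM per library. Of the CD4 T cell markers, Cd4 was at 0.228 to 0.704 CPM and Foxp3 at 0 to 0.485 CPM. Ctla4 was at 10.5 to 33.6 CPM, Cd40lg at 9.74 to 32.5 CPM and Zbtb7b at 9.95 to 18.6 CPM.

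Trat1, Zap70 and Trbc2 were called higher in the Hic1 vector libraries in the main analysis, and no member was called lower. Trat1, a small adaptor that stabilises the receptor complex at the surface, was 6.27-fold higher, Zap70, the kinase that docks on the zeta chain, 1.58-fold, and Trbc2, a constant region of the receptor beta chain, 1.5-fold. The other 34 members did not pass. In such bulk samples, fewer cells of a type and less RNA per cell cannot be told apart. At an adjusted p below 0.05 (edgeR, quasi-likelihood test, Benjamini-Hochberg), 1.82% of all genes tested were called (0.719% higher and 1.1% lower with the Hic1 vector), against 3 of these 37, all higher. Trat1, among these 3, passed the filter on low counts only through the Hic1 vector libraries, so its call is not independent of its level there. Before adjustment, 20 of the 37 had p below 0.05, 15 higher and 5 lower, where 19.1% of all genes did. DESeq2 called 6 members, 4 higher and 2 lower, against 3.96% of all genes, and limma voom called none, against 1.04%. With the replicate number as a block, edgeR called 12 members, against 6.8%.

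Of the 37 log2 fold changes (Hic1 vector over empty vector), 27 were above 0 and 10 below, with a median of 0.25 against 0.01 over all genes tested. The median was 0.14 without empty vector replicate 1 (26 above 0) and 0.14 without Hic1 vector replicate 2 (23 above 0). The median absolute log2 fold change, as estimated, was 0.32 for members and 0.30 for all genes. Of the 37, 26 (70.3%) were below 0.5 in size, against 70.7% of all genes. Their precision was better than usual, since 36 members had at least 202 counts in every library. The median half-width of the 95% interval was 0.32 for members and 0.60 for all genes. Sizes and shares over all genes thus rest on many genes measured less precisely than the members, and genes of like level were not compared. In 27 members (73.0%) the groups did not overlap, 19 with both Hic1 vector libraries higher and 8 lower, against 51.4% of all genes (26.5% higher and 24.9% lower). Within both replicate numbers, 24 members were higher, 8 were lower and 5 took opposite signs. Of all 11676 genes tested, 4059 were higher within both numbers and 3854 lower. The 95% interval lay wholly between -1 and 1 for 33 members, which leaves room for less than a 2-fold difference in either direction.

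**Figure D1:**
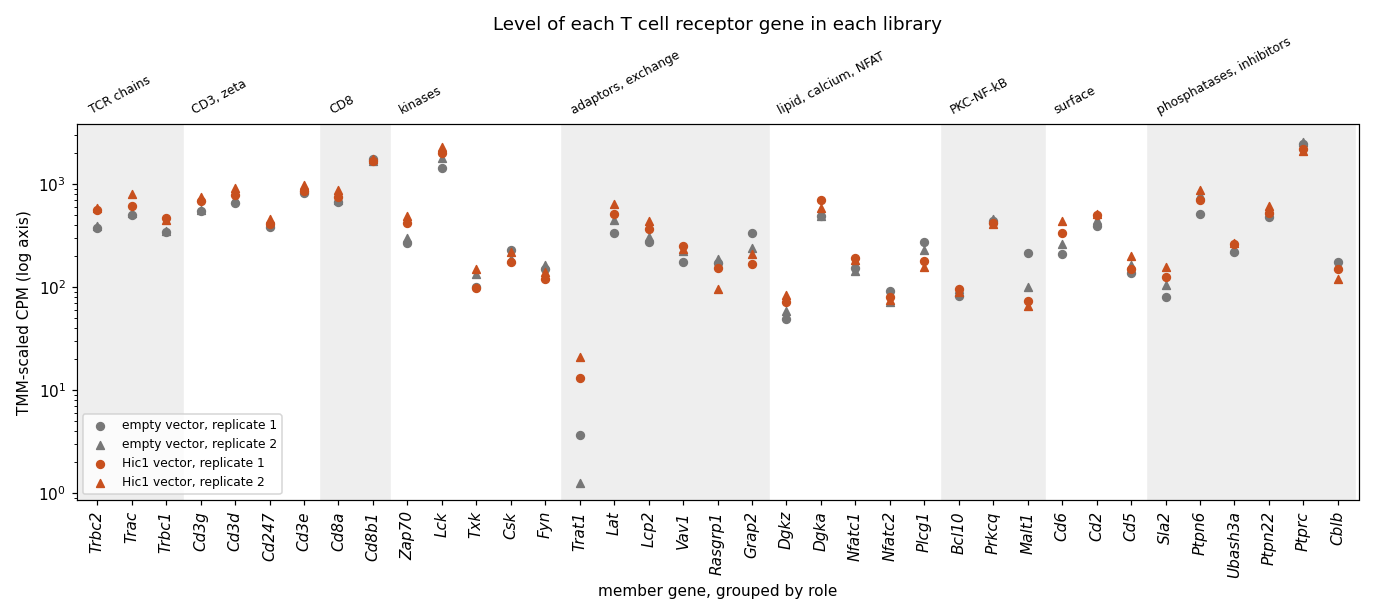
Level of the 37 genes in each library as TMM-scaled CPM on a log axis, grouped by role, with the empty vector libraries in grey and the Hic1 vector libraries in orange, replicate 1 as circles and replicate 2 as triangles. Trat1 stands alone at the bottom with all 4 libraries between 1.25 and 21 CPM, and Ptprc, Lck and Cd8b1 lie at 1449 CPM or above in every library.

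The constant chains of the receptor were higher in both Hic1 vector libraries than in both empty vector libraries, and 1 of the 3, Trbc2, passed. Trbc2 (chr6:41546730-41548352, plus strand, mm10) was at 372.6 and 394.2 CPM with the empty vector and 560.8 and 587.9 CPM with Hic1, so the groups were well apart. Its log2 fold change was 0.58 ± 0.125 (SE), with adjusted p = 0.0444 in edgeR's quasi-likelihood test, and the log2 differences within replicate numbers 1 and 2 were 0.59 and 0.58. Trbc1, the other beta constant gene, was at 345.9 and 353.3 against 466.2 and 446.7 CPM (log2 value 0.38 ± 0.126) and did not pass. Trac, the alpha constant chain, was at 496.4 and 521.4 against 610.3 and 806.1 CPM (0.48 ± 0.146) and did not pass either, but it was called without Hic1 vector replicate 1 (0.67, adjusted p = 0.0276 in edgeR's quasi-likelihood test) and was at 0.27 without Hic1 vector replicate 2. Hic1 vector replicate 2 was the highest library for Trac and Trbc2, and replicate 1 for Trbc1. The exons of Trbc1 and Trbc2 are nearly identical and the table does not say how shared reads were counted, so the split between them is uncertain. Gene counts also do not separate the transgenic receptor from an endogenous one. Trdc, the delta constant gene inside the alpha locus, was at 252.8 to 367 CPM in the empty vector and 194.9 to 290 CPM in the Hic1 vector libraries and was not called.

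Of the CD3 and zeta genes none passed by edgeR's quasi-likelihood test, and none by DESeq2 or limma voom, while 2 of the 4 had an unadjusted p below 0.05. Cd3g, the gamma chain, was at 547.1 and 561.1 against 689.9 and 748.7 CPM, and Cd3d, the delta chain, at 655.6 and 711.8 against 780.1 and 925.6 CPM. In both genes the Hic1 vector libraries lay above the empty vector libraries, with log2 values of 0.38 ± 0.122 and 0.32 ± 0.129. Cd3g was at 0.58 after GC correction, and Cd3d at 0.20 without Hic1 vector replicate 2. Cd3e, the epsilon chain, was at 816.1 and 929.1 against 852.1 and 987.9 CPM, and Cd247, the zeta chain, at 384 and 413.2 against 409.8 and 460.6 CPM. These groups overlapped, and the 95% intervals of their log2 differences were -0.20 to 0.36 and -0.16 to 0.41. Cd3d and Cd3g are neighbours on chromosome 9 that run away from each other, with 1354 bases between them, and Cd3e lies 11400 bases from Cd3d. Of the exon length of Cd247, 56.4% is shared with Pou2f1 on the opposite strand. Pou2f1 had 52 to 112 counts and Cd247 at least 1582. How reads in the shared stretch were counted was not stated, and if they were left out, the level of Cd247 is understated.

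The coreceptor chains differed little. Cd8b1, the CD8 beta chain, was at 1757 and 1669 CPM with the empty vector and 1685 and 1766 CPM with Hic1, so the groups overlapped. Its log2 difference of 0.01 had a 95% interval of -0.23 to 0.25, and its sign turned in 6 of 16 other settings. Cd8a, the CD8 alpha chain, was at 665.1 and 708.5 against 752.5 and 875.9 CPM without overlap (log2 value 0.25, 95% interval -0.03 to 0.52, and 0.14 without Hic1 vector replicate 2). Neither passed by edgeR, DESeq2 or limma voom, and neither had an unadjusted p below 0.05.

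Among the tyrosine kinases Zap70 rose and the other 4 did not pass. Zap70 (chr1:36761798-36782818, plus strand, mm10) was at 268.9 and 300.6 CPM with the empty vector and 415.8 and 486.3 CPM with Hic1, with no overlap. Its log2 fold change was 0.66 ± 0.14 (SE), with adjusted p = 0.043 in edgeR's quasi-likelihood test, and 0.63 and 0.69 within replicate numbers 1 and 2. Lck, the kinase that starts the cascade, was at 1449 and 1783 against 1994 and 2268 CPM (0.40 ± 0.13), while Fyn, its relative, was at 148.6 and 164.4 against 121.1 and 138.7 CPM (-0.27 ± 0.154, and -0.17 without Hic1 vector replicate 1). Both kept the groups apart, in opposite directions. Csk, the kinase that restrains Lck and Fyn, was at 229.1 and 186.4 against 174.9 and 218.3 CPM, and Txk, a Tec family kinase, at 99.5 and 132.7 against 98.4 and 150 CPM. In Csk the replicate numbers moved oppositely, by -0.39 within number 1 and 0.23 within number 2. The transcript of Zap70 has a GC content of 59.6%, where the median of all genes tested is 49%, and across 11667 genes GC content and log2 fold change had a Spearman correlation of 0.303, given as a description. With the GC trend of every library taken out, the log2 value of Zap70 was 0.46 (adjusted p = 0.145) and it was not called. The same correction moved Lck to 0.26, where it also lay without empty vector replicate 1.

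Adaptors and exchange factors took both directions, with no overlap between the groups in any of the 6 genes, and Trat1 alone passed. Trat1 had 15 and 5 counts with the empty vector and 94 and 184 with Hic1, which is 3.64 and 1.25 against 13.2 and 21 CPM. With 5 counts in empty vector replicate 2, it passed the filter on low counts only through its level in the Hic1 vector libraries. Both Hic1 vector libraries were above both controls, with the lowest and the highest level in the replicates numbered 2. The log2 fold change was 2.65 ± 0.471 (SE), with adjusted p = 0.0242 in edgeR's quasi-likelihood test, and 1.77 and 3.75 within numbers 1 and 2. Trat1 was the least abundant member, at percentile 7.82 of all genes tested by mean CPM with the empty vector, where the other 36 lay at 69.7 or above.

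Lat, the membrane scaffold of the cascade, was at 333.8 and 445.7 against 515.9 and 646.7 CPM (log2 value 0.58 ± 0.167). Lcp2, which encodes its partner SLP-76, was at 274.3 and 309 against 363.4 and 436.2 CPM (0.45 ± 0.144), and Vav1, an exchange factor for Rac, at 175 and 221.9 against 252.3 and 234.5 CPM (0.29 ± 0.155). In these 3 the Hic1 vector libraries were the higher ones. Grap2, which encodes Gads, the bridge between LAT and SLP-76, went the other way, at 337.2 and 238.1 against 166.1 and 210.8 CPM (-0.61 ± 0.187). Rasgrp1, the exchange factor that turns on Ras, was at 172.8 and 187.6 against 152.3 and 96.7 CPM (-0.53 ± 0.203). The differences of Grap2 and Rasgrp1 were uneven, at -1.02 and -0.18 within the numbers for Grap2 and -0.18 and -0.95 for Rasgrp1. None of these 5 passed. Without Hic1 vector replicate 1 Rasgrp1 was called at -0.89 and Lat was called as well, and without Hic1 vector replicate 2 Rasgrp1 was at -0.24. Grap2 was called without empty vector replicate 2 and was at -0.33 without empty vector replicate 1, where Vav1 was at 0.14. GC correction moved Lat to 0.38 and Vav1 to 0.16.

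**Figure D2:**
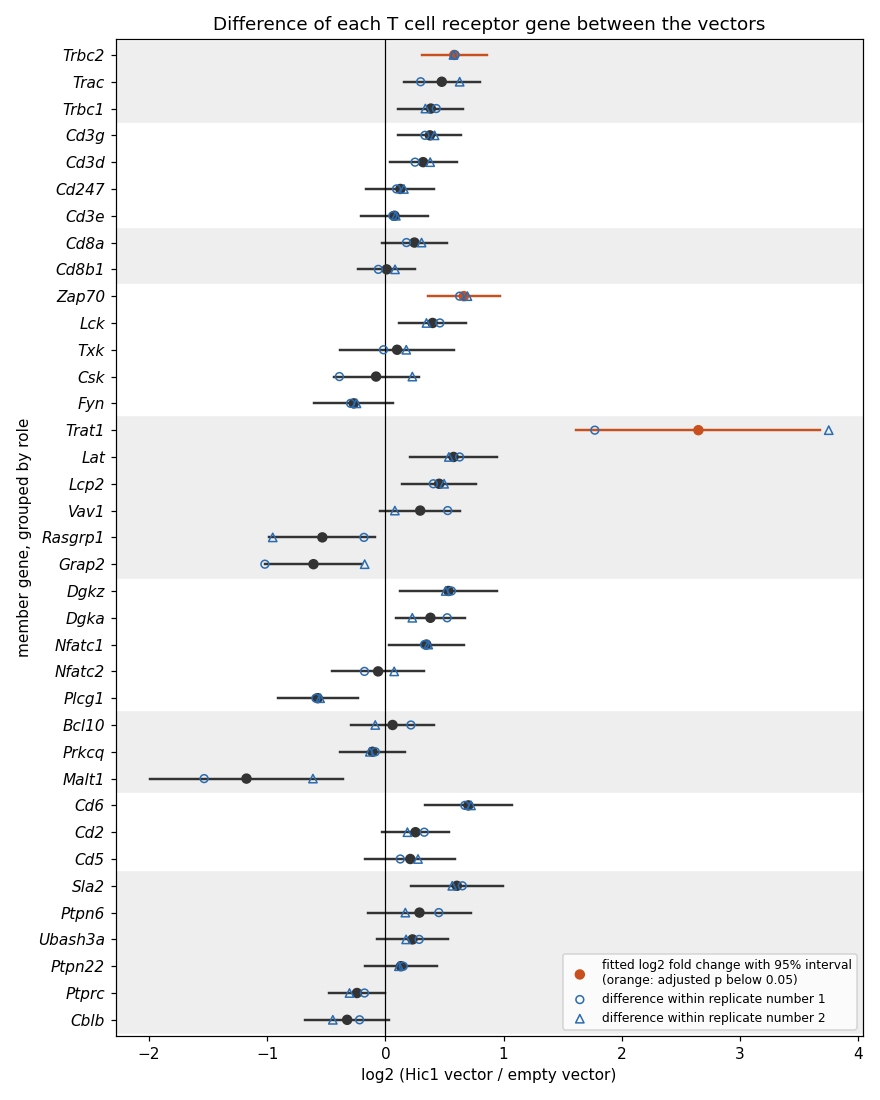
Fitted log2 difference of each of the 37 genes between Hic1 vector and empty vector libraries with its 95% interval, orange where the adjusted p was below 0.05, and open symbols for the difference within replicate number 1 (circle) and 2 (triangle). Trbc2, Zap70 and Trat1 are orange, Malt1 lies farthest to the left at -1.18, and most other points lie between -0.6 and 0.7.

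In the lipid and calcium branch no gene passed by edgeR's quasi-likelihood test, with 4 of 5 at an unadjusted p below 0.05, and DESeq2 called Plcg1 while limma voom called none. Plcg1, the phospholipase that makes diacylglycerol and inositol trisphosphate, was at 272.6 and 228.1 CPM with the empty vector and 181.2 and 155.4 CPM with Hic1. It was lower in both Hic1 vector libraries, with a log2 value of -0.57 ± 0.154 and -0.59 and -0.55 within the replicate numbers (adjusted p = 0.0795 by edgeR's quasi-likelihood test). The diacylglycerol kinases, which remove the diacylglycerol made by that enzyme, lay on the other side. Dgka was at 485.5 and 495.2 against 697.5 and 579.8 CPM (0.38 ± 0.133), and Dgkz at 49 and 59 against 72.4 and 84.1 CPM (0.53 ± 0.187). Neither passed. Nfatc1, a calcium-driven transcription factor, was at 153.2 and 144.2 against 192.7 and 185.4 CPM (0.35 ± 0.144), and Nfatc2, its relative, at 90.8 and 71.2 against 80.3 and 75 CPM. The groups were apart for Nfatc1 and overlapped for Nfatc2. GC correction moved Dgkz to 0.34 and Nfatc1 to 0.22, and Dgka was at 0.25 without Hic1 vector replicate 1.

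None of the 3 genes of the branch from PKC theta to NF-kB passed by edgeR's quasi-likelihood test, 1 had an unadjusted p below 0.05, and Malt1 was called by DESeq2. Malt1, a protease and scaffold that works with BCL10, was at 215.1 and 99.7 CPM with the empty vector and 74.1 and 65.1 CPM with Hic1. Its empty vector replicate 1 stood far above the other 3 libraries, and the log2 value of -1.18 ± 0.34 became -0.52 without that library, while Malt1 was called without empty vector replicate 2. Bcl10, its partner, was at 82 and 95.9 against 95.3 and 90.4 CPM, and Prkcq, which encodes PKC theta, at 440.8 and 453.4 against 415.5 and 413.9 CPM. The groups overlapped for Bcl10 and lay narrowly apart for Prkcq, with log2 values of 0.06 ± 0.162 and -0.11 ± 0.125.

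Of the surface modulators none passed by edgeR's quasi-likelihood test, 1 of 3 had an unadjusted p below 0.05, and DESeq2 called Cd6. Cd6, a scavenger-type receptor that binds ALCAM, was at 210.2 and 263.1 CPM with the empty vector and 335.1 and 434.8 CPM with Hic1, without overlap. The log2 value was 0.70 ± 0.167, with 0.67 and 0.72 within the replicate numbers and adjusted p = 0.0597 in edgeR's quasi-likelihood test. Cd5, its neighbour on chromosome 19 and a restrainer of receptor signals, was at 137.4 and 164.6 against 149.9 and 199.4 CPM with overlap (0.21 ± 0.175). Cd2, the adhesion receptor for CD48, was at 394.7 and 451.9 against 495.7 and 514.2 CPM (0.25 ± 0.13). Cd6 was called without empty vector replicate 2 and without Hic1 vector replicate 1, Cd5 was at 0.02 after GC correction, and Cd2 at 0.16 without empty vector replicate 1.

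None of the 6 phosphatases, ligases and inhibitory adaptors passed by edgeR's quasi-likelihood test, DESeq2 or limma voom, and 2 had an unadjusted p below 0.05. Sla2, which encodes SLAP-2, an adaptor for degradation of the receptor, was at 80.6 and 104.7 against 126.7 and 155.1 CPM, the Hic1 vector libraries higher (log2 value 0.60 ± 0.177). A stretch of 731 bases, 23.6% of its exon length, is shared with Rab5if on the opposite strand. Ptprc, which encodes the phosphatase CD45, had the highest mean CPM of the members in both groups, though below Lck in Hic1 vector replicate 2, at 2471 and 2590 against 2185 and 2098 CPM, the Hic1 vector libraries lower (-0.24 ± 0.108). Cblb, a ubiquitin ligase that limits activation, was also lower in both Hic1 vector libraries, at 175 and 161.9 against 150.4 and 118.8 CPM (-0.32 ± 0.162). Ubash3a, a suppressor of receptor signals, was at 217 and 235.8 against 264.5 and 266.3 CPM (0.23 ± 0.136). Ptpn6, which encodes SHP-1, and Ptpn22 overlapped between the groups, with log2 values of 0.29 ± 0.194 and 0.13 ± 0.139. GC correction moved Ptprc to -0.04 and Ptpn6 to 0.13, and leaving out 1 library moved Ptpn6 between 0.02 and 0.60 and Cblb between -0.50 and -0.16. Log2 values of these inhibitory genes lay on both sides of 0.

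Per kilobase of exon, the scale on which genes can be compared, the most abundant members in the empty vector libraries were Cd8b1 (1155 CPM per kb), Trbc2 (554), Lck (552), Trac (544) and Trbc1 (467). The order of Trbc2, Lck and Trac is not resolved by these values. In the Hic1 vector libraries the same 5 genes led, at 1163, 830, 728, 757 and 609 CPM per kb. Cd3d stood at 377 and 470, Cd3e at 214 and 225, Cd3g at 170 and 220, and Cd247 at 74.8 and 81.7 CPM per kb in the empty and Hic1 vector libraries. The lowest levels in the empty vector libraries were those of Malt1 (8.72), Dgkz (8.61), Nfatc2 (7.66) and Trat1 (0.524 CPM per kb). The length is the union of all annotated exons, which understates the level of genes with long, rarely used exons.

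Ratios of counts within a library do not depend on how libraries are scaled, and 17 pairs of members were compared in this way, chosen after their values were seen. With 2 libraries against 2 an exact two-sided permutation test cannot go below p = 0.333, so the ratios are a description. Cd3d over Cd3e was 0.803 and 0.766 with the empty vector and 0.916 and 0.937 with Hic1, and Cd3g over Cd3e was 0.67 and 0.604 against 0.81 and 0.758. The neighbours Cd3d and Cd3g kept overlapping ratios to each other (1.20 and 1.27 against 1.13 and 1.24), as did Cd3e and Cd247 (2.13 and 2.25 against 2.08 and 2.14). In these libraries Cd3d and Cd3g were higher relative to Cd3e with the Hic1 vector. Of the 17 pairs, 14 had no overlap between the groups, which lends no support, since the pairs were picked with these values known. Cd8a over Cd8b1 was 0.379 and 0.425 against 0.447 and 0.496.

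Lck over Fyn was 9.75 and 10.8 with the empty vector and 16.5 and 16.4 with Hic1. Zap70 over Cd247, the kinase over the chain on which it docks, was 0.70 and 0.727 against 1.01 and 1.06. Dgka over Rasgrp1, which act against each other on the Ras branch, was 2.81 and 2.64 against 4.58 and 5.99. Grap2 over Lcp2 was 1.23 and 0.77 against 0.457 and 0.483, so fewer Gads reads were found per SLP-76 read.

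**Figure D3:**
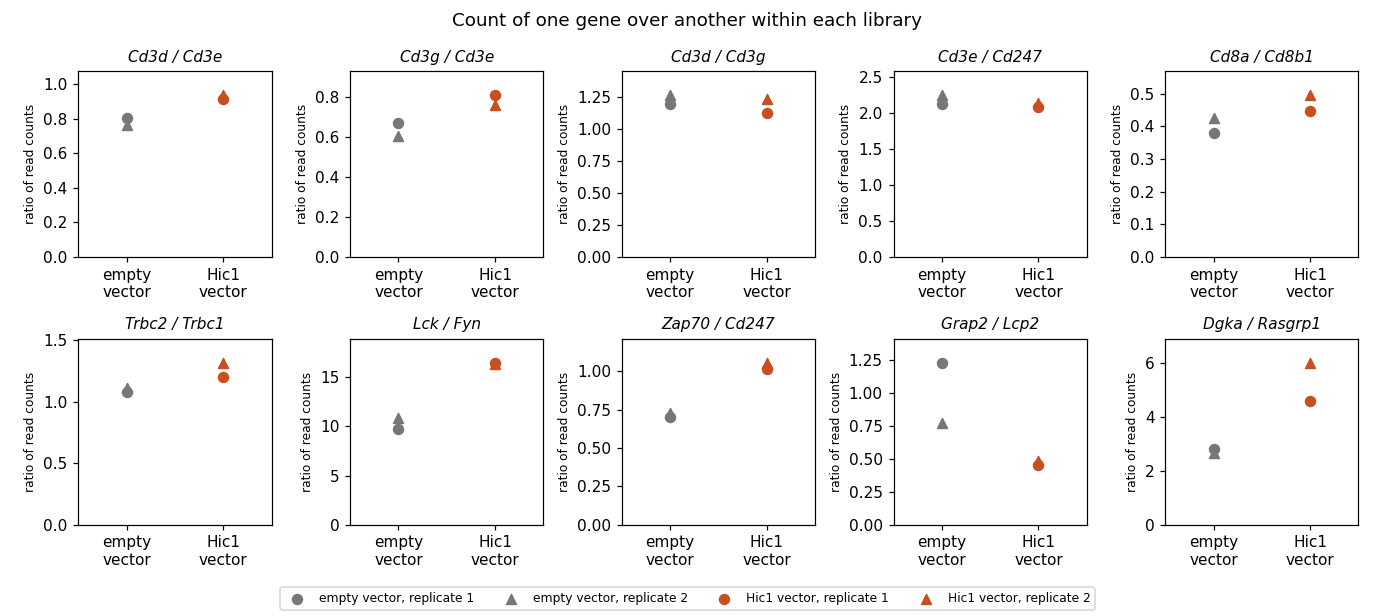
Count of one member over another within each library for 10 pairs, each panel from 0, with the empty vector libraries in grey at the left and the Hic1 vector libraries in orange at the right. Lck over Fyn lies near 10 in the empty vector libraries and near 16 in the Hic1 vector libraries, while Cd3d over Cd3g overlaps between the groups.

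Further genes of the pathway outside the 37 were divided evenly around 0. Of 85 listed genes 84 were tested (Cd4 was filtered out), edgeR called 2, both lower, where 1.82% of all genes tested were called, so the count was near the background. Before adjustment 25 had p below 0.05, 11 higher and 14 lower, where 19.1% of all genes did. DESeq2 called 5 of them, 2 of these higher, against 3.96% of all genes, and limma voom 2, against 1.04%. Their median log2 fold change was -0.005, with 42 above and 42 below 0. Was, the actin nucleation promoting factor of Wiskott-Aldrich syndrome, was at 135.4 and 118.7 CPM with the empty vector and 65.6 and 64.2 CPM with Hic1. It fell by 0.97 on the log2 scale (SE 0.159, adjusted p = 0.0195 by edgeR's quasi-likelihood test). Rasal3, a Ras GTPase-activating protein (0.62 ± 0.142), Akt1, a survival kinase (1.01 ± 0.239), and Nfatc3 (-0.60 ± 0.145) had log2 values that came next by p and did not pass.

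Of 39 genes known to be induced by receptor engagement 32 were tested, and Myc alone passed, where 1.82% of all genes did, so the count was near the background. Myc, the growth transcription factor, was at 17.2 and 19.5 CPM with the empty vector and 51.8 and 42.2 CPM with Hic1, a rise of 1.34 ± 0.239 on the log2 scale (adjusted p = 0.0238 by edgeR's quasi-likelihood test). Junb, an AP-1 subunit (0.73 ± 0.167, adjusted p = 0.0503 by the same edgeR test), Irf4, a target that scales with receptor strength (-0.80 ± 0.261), Nfkbia (0.52 ± 0.172) and Nfkbid (-0.45 ± 0.222) had log2 values that did not pass. Of the 32, 16 were above 0 and 16 below, with a median of 0.05. These values rest on the libraries kept, since the median was -0.45 with 6 of 30 above 0 without Hic1 vector replicate 1, 0.21 with 20 of 32 without Hic1 vector replicate 2, and 0.30 with 23 of 35 without empty vector replicate 1. None of the 32 was called lower in the main analysis, with 1 lower and 3 higher at an unadjusted p below 0.05, a smaller share than the 19.1% of all genes. DESeq2 called Myc and Junb, and limma voom called Myc.

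Markers of other cell types are given because several members are also expressed by other lymphocytes. The 9 B cell markers summed to 84.2 and 98.2 CPM with the empty vector and to 283.7 and 217.3 CPM with Hic1, most of it Ighm, which was called higher. Of the 9, 8 had a count with the empty vector and 9 with Hic1. Cd79b was at 16.3 and 3.25 against 38 and 13.3 CPM, Cd79a at 1.46 and 0 against 2.39 and 1.82 CPM, and Ms4a1 at 0 to 0.5 CPM in the 4 libraries. Cd74 went the other way, at 4.61 and 7.74 against 3.52 and 3.3 CPM, and was not called. All 6 NK cell markers had a count in the Hic1 vector libraries and 5 in the empty vector libraries. Their sums were 59 and 74.2 against 87.7 and 100.2 CPM, with Ncr1 at 0 to 0.5 CPM, and 1 of them, Klra8, was called higher. Eomes went the other way, at 20.4 and 17.2 against 6.05 and 11.7 CPM, and was not called. The 10 myeloid markers summed to 500.3 and 539.9 against 651.6 and 554.7 CPM, most of it Itgax, which activated CD8+ T cells also express. Lyz2 was at 0 in 3 libraries and at 1.48 CPM in Hic1 vector replicate 2. The 2 gamma delta T cell markers found in the table summed to 195 to 367 CPM, nearly all of it Trdc. CD4 T cell markers summed to 34.5 to 85 CPM, and neutrophil and erythroid or platelet markers to below 3 CPM each. Plasma cell markers summed to 55.5 to 114.2 CPM, most of it Xbp1 at 51.3 to 106.7 CPM. Of the other plasma cell markers, Sdc1 was at 0 to 0.5 CPM, Jchain at 0 to 1.46 CPM and Igkc at 1.97 to 7 CPM. The part of these markers in the results was not tested.

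The calls on the 3 risen members depended on the libraries kept, while their direction did not turn in any of the 16 other settings. Trat1 stayed called in 14 of 16, with log2 values of 2.13 to 3.49. It was lost without empty vector replicate 1 (3.49, adjusted p = 0.0592 by edgeR's quasi-likelihood test) and by limma voom (2.90). Zap70 and Trbc2 stayed called in 10 of 16 each, with log2 values of 0.46 to 0.78 and 0.51 to 0.65. Both were lost without empty vector replicate 1, without empty vector replicate 2, without Hic1 vector replicate 2, with library sizes alone as the scaling, by limma voom and after GC correction. Of the 37 members, 30 kept the sign of their difference in all 16 settings, and 23 were called in none of them. With library sizes alone the median of members was 0.17 and that of all genes -0.06, 25 members were above 0, and the share of higher genes among all calls was 21.8% in place of 39.4%.

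**Figure D4:**
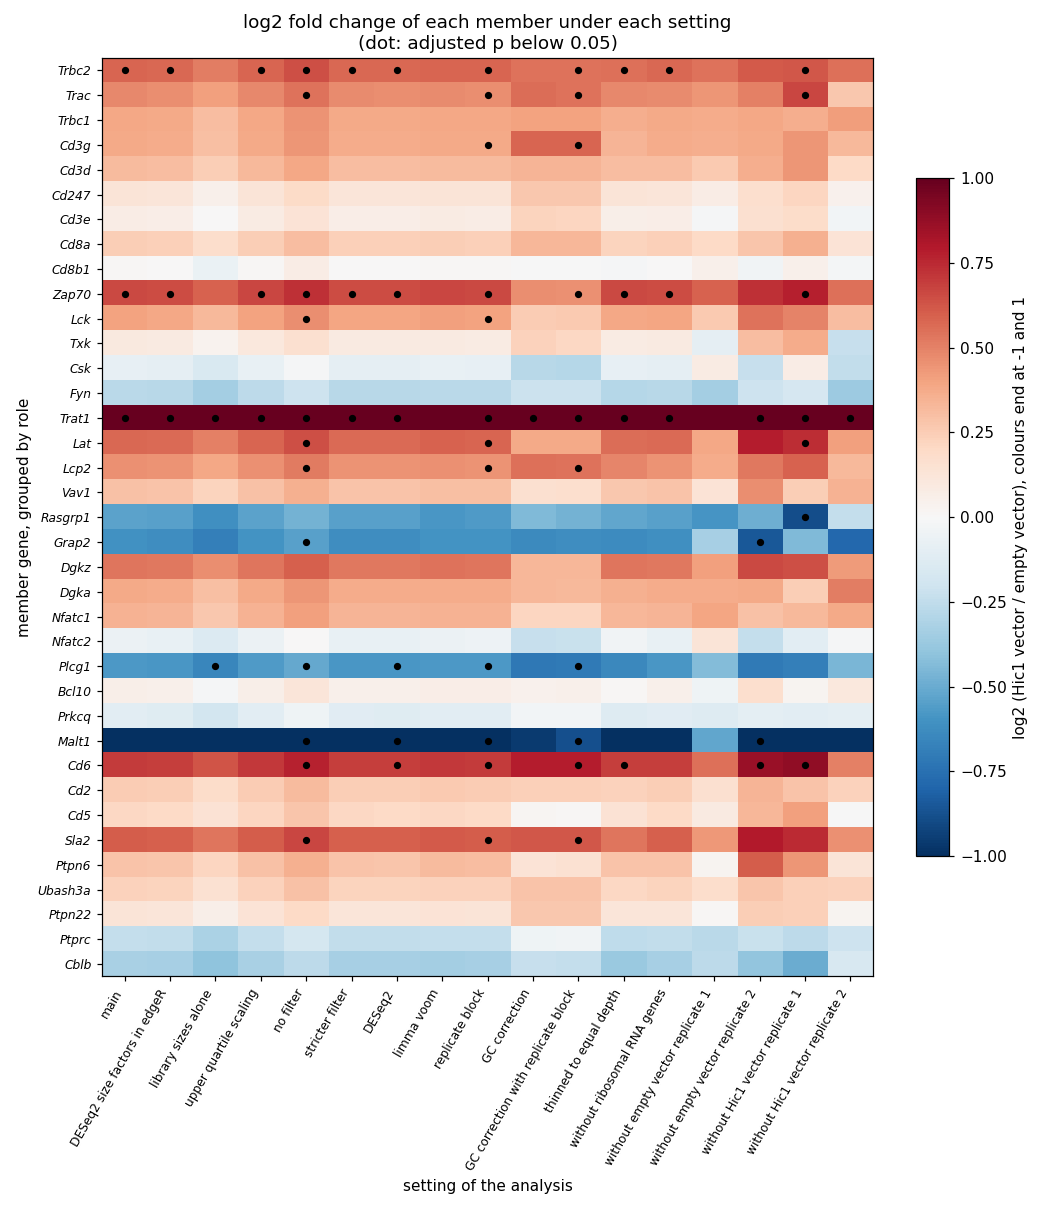
Log2 difference of each of the 37 genes (rows) under the main analysis and 16 alternatives (columns), red for higher and blue for lower with the Hic1 vector, colours ending at -1 and 1, and a dot where the adjusted p was below 0.05. The Trat1 row is red in all 17 columns, and the Csk, Txk, Bcl10, Nfatc2, Cd8b1, Cd3e and Cd5 rows are pale and change sign.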

How the data were processed

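Polyadenylated RNA of 4 libraries was measured. Per the labels' protocols, Smart-seq2 was run on 5 µl of lysate from 1000 resorted cells (5000 at the first sort), with 12 PCR cycles. The submitters' processing notes name mm10, DESeq2 1.3.2, featureCounts 1.5.3, STAR 2.5.2b and Trimmomatic 0.38, without their roles. The deposited raw table holds whole-number read counts per gene. The values of the deposited normalized table are a signal that is the count over a library factor with 1 added, and served only for that check. The annotation release, the read layout and whether counting used strand were not stated in the sources used here.

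With edgeR 4.0.16, genes passing filterByExpr (at least 10 counts, 15 in total) underwent TMM scaling and the quasi-likelihood test between groups (robust, prior count 2), adjusted by Benjamini-Hochberg over all 11676 genes. Standard errors are the log2 fold change over the root of F, and the 95% intervals use the test's degrees of freedom. Differences within a replicate number use log2 CPM with the same prior count. Other versions were R 4.3.3, DESeq2 1.42.0 and limma 3.58.1. Of the identifiers, 55141 matched GENCODE M21, which gave exon lengths and GC content, and coordinates only where the version matched (35 of 37 members). In simulated data of the same size, the test recovered 44 of 108 genes changed 2-fold and 72 of 89 changed 4-fold, with 14 false calls, and 4 calls when nothing was changed. The changed genes were drawn from all genes tested, and no effect of the replicate number was simulated.

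The members and lists were chosen with earlier results of these data known. All members could be named. In the other lists, called genes and then those of lowest p were named until there were 5, and Trdc and the marker genes stand outside that rule. Some genes that the rule names are not reported here. No p-value was adjusted over a list alone. The libraries carried no stated molecular identifiers, so amplified copies may be counted more than once.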

Additional observations from a re-analysis of the deposited data

How the results depend on the processing

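The main analysis called 213 genes, 3 members, 2 other pathway genes and 1 induced gene. In the order all genes, members, other pathway genes and induced genes, the counts were 819, 12, 10 and 3 without a filter on low counts, 418, 6, 5 and 2 by DESeq2, 121, 0, 2 and 1 by limma voom, 117, 1, 1 and 1 after GC correction, and 321, 2, 3 and 1 with library sizes alone. By limma voom 20 members had an unadjusted p below 0.05. The stricter filter and thinning to equal depth each gave 4 other pathway genes and 2 induced genes, and upper quartile scaling gave 2 induced genes. Leaving out 1 library gave 8 to 318 genes, 0 to 7 members, 0 to 7 other pathway genes and 0 to 2 induced genes. The low ends came without empty vector replicate 1, where edgeR's quasi-likelihood test left 10 members, 10 other pathway genes and 5 induced genes at an unadjusted p below 0.05. The member count was also 1 without Hic1 vector replicate 2 and 7 without Hic1 vector replicate 1. That of other pathway genes was 4 without empty vector replicate 2, 7 without Hic1 vector replicate 1 and 1 without Hic1 vector replicate 2, and that of induced genes 2 without either Hic1 vector library.

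The replicate block (the replicate number as a term) gave 794 genes, 12 members, 12 other pathway genes and 4 induced genes, and with GC correction 460, 10, 8 and 5. The labels do not say that the numbers pair the samples. Deviations of same-numbered libraries correlated at 0.239 across genes. The members called with the block were Cd3g, Cd6, Lat, Lck, Lcp2, Sla2, Trac, Trat1, Trbc2 and Zap70, higher, and Malt1 and Plcg1, lower.

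The sign of 7 members turned in 17 of their settings. Cd8b1 was at -0.0640 with library sizes alone, -0.0024 after GC correction, -0.0021 after GC correction with the replicate block, -0.0093 after thinning, -0.0386 without empty vector replicate 2 and -0.0183 without Hic1 vector replicate 2. Without empty vector replicate 1, Cd3e was at -0.0119, Csk at 0.0797, Txk at -0.0913, Bcl10 at -0.0453 and Nfatc2 at 0.1257. Without Hic1 vector replicate 2, Cd3e was at -0.0291, Cd5 at -0.0049 and Txk at -0.2320. Csk was at 0.0775 without Hic1 vector replicate 1, Bcl10 at -0.0143 with library sizes alone and Nfatc2 at 0.0018 without a filter. The leave-one-out values of these members spanned -0.0386 to 0.0502 for Cd8b1, -0.0291 to 0.1852 for Cd3e, -0.2430 to 0.0797 for Csk, -0.2320 to 0.3747 for Txk, -0.0453 to 0.1648 for Bcl10, -0.2383 to 0.1257 for Nfatc2 and -0.0049 to 0.4065 for Cd5. The cause of these changes was not tested. Depth and 2 libraries a group limit what was detectable. In simulated data 44 of 108 genes changed 2-fold were recovered. These were drawn from all genes tested, so the share is not that of the members, whose intervals were narrower.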
